A study of Mus musculus with 6 samples.

Results

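The genes described here encode calcium pumps, enzymes that spend ATP to move calcium out of the cytosol. The group is made of Atp2b1, Atp2b2 and Atp2b4, 3 plasma membrane calcium ATPases (PMCA), and Atp2a2, the widely expressed calcium ATPase of the endoplasmic reticulum (SERCA). Its members are all probe sets whose only gene symbol is one of these 4 names, and 7 of the 22626 probe sets on the array met that rule. Atp2b2 has 3 probe sets and Atp2a2 has 4, while no probe set in the annotation used here carries the symbol Atp2b1 or Atp2b4, so these genes were not analysed here. The group was chosen by the difference of Atp2b2 between ECS at 2 h and sham on these same arrays, where 11 of the 12662 tested probe sets had a p-value as small as that of Atp2b2 1433888_at or smaller. Its values in that comparison are therefore a description, without a test.

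Neurons admit calcium through channels whenever they fire, and a seizure loads them far beyond ordinary activity. Plasma membrane pumps bind calcium with high affinity, are stimulated by calmodulin and restore the resting level after a calcium signal, whereas SERCA pumps refill the store of the endoplasmic reticulum from which calcium is released again. PMCA2, the product of Atp2b2, is a fast pump of neurons and of the sensory hair cells of the ear, and mice that lack it are deaf and ataxic.

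The tissue was the hypothalamic paraventricular nucleus (PVN), cut out by laser from brain sections of C57Bl/6 mice. The groups were mice killed 2 h after a single electroconvulsive seizure (ECS), mice killed 6 h after one, and sham mice that were handled alike without a shock and killed at 2 h. The seizure was set off under isoflurane by a current of 25 mA through ear clips. Each group holds 2 arrays with an RNA pool of 2 to 3 mice on each, and different mice were used for the replicates. The sources used here give neither age nor sex. There was no sham group at 6 h, so the time since ECS and the hour of collection cannot be told apart at 6 h.

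Signals are given on the scale log2(signal + 16) after quantile normalization, where 4 is the floor, as the values of the 2 arrays of a group. Changes are differences on that scale with the standard error (SE) from limma, whose linear model took in every tested probe set and all 6 arrays. The array medians as deposited lay between 25.2 and 40.8. Replicate 1 of ECS at 6 h stood apart, with a mean rank correlation with the other arrays of 0.846, against 0.869 to 0.89 for the others. Its Gapdh signal was 14.1 times as high at the 3' end as at the 5' end, against 6.43 to 10.5 times. For Actb this ratio was 0.764, within the 0.562 to 0.771 of the other arrays. The PVN genes Oxt (oxytocin), Avp (vasopressin), Trh (thyrotropin-releasing hormone) and Sim1, a transcription factor of this nucleus, passed the signal filter. Otp, another PVN factor, did not pass it, and no probe set has Crh as its only symbol in the annotation.

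By group mean, Atp2b2 was lowest 2 h after the seizure on each of its probe sets. On the brightest, 1433888_at, the log2 signal was 8.33 and 8.39 in ECS at 2 h, 9.34 and 8.95 in ECS at 6 h, and 10.25 and 9.49 in sham. As deposited, on the linear scale, these arrays read 243 and 336 at 2 h, 687 and 512 at 6 h, and 954 and 837 in sham. Neither array of any group overlapped with another group, in the order 2 h, 6 h and sham from low to high.

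On 1420402_at the log2 signal of Atp2b2 was 5.88 and 5.72 in ECS at 2 h, 5.84 and 7.71 in ECS at 6 h, and 7.69 and 7.50 in sham. Here the 6 h arrays split, replicate 1 lying between the 2 h arrays and replicate 2 just above both sham arrays. On 1420403_at it was 6.48 and 6.42 in ECS at 2 h, 6.98 and 7.47 in ECS at 6 h, and 6.99 and 7.77 in sham. Both 2 h arrays lay below all others, and the 6 h arrays overlapped with the sham arrays. By rank, 1420402_at stood at percentiles 56 and 52.9 of its array in ECS at 2 h, 55.1 and 82.4 in ECS at 6 h, and 82.3 and 80.1 in sham.

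**Figure D1:**
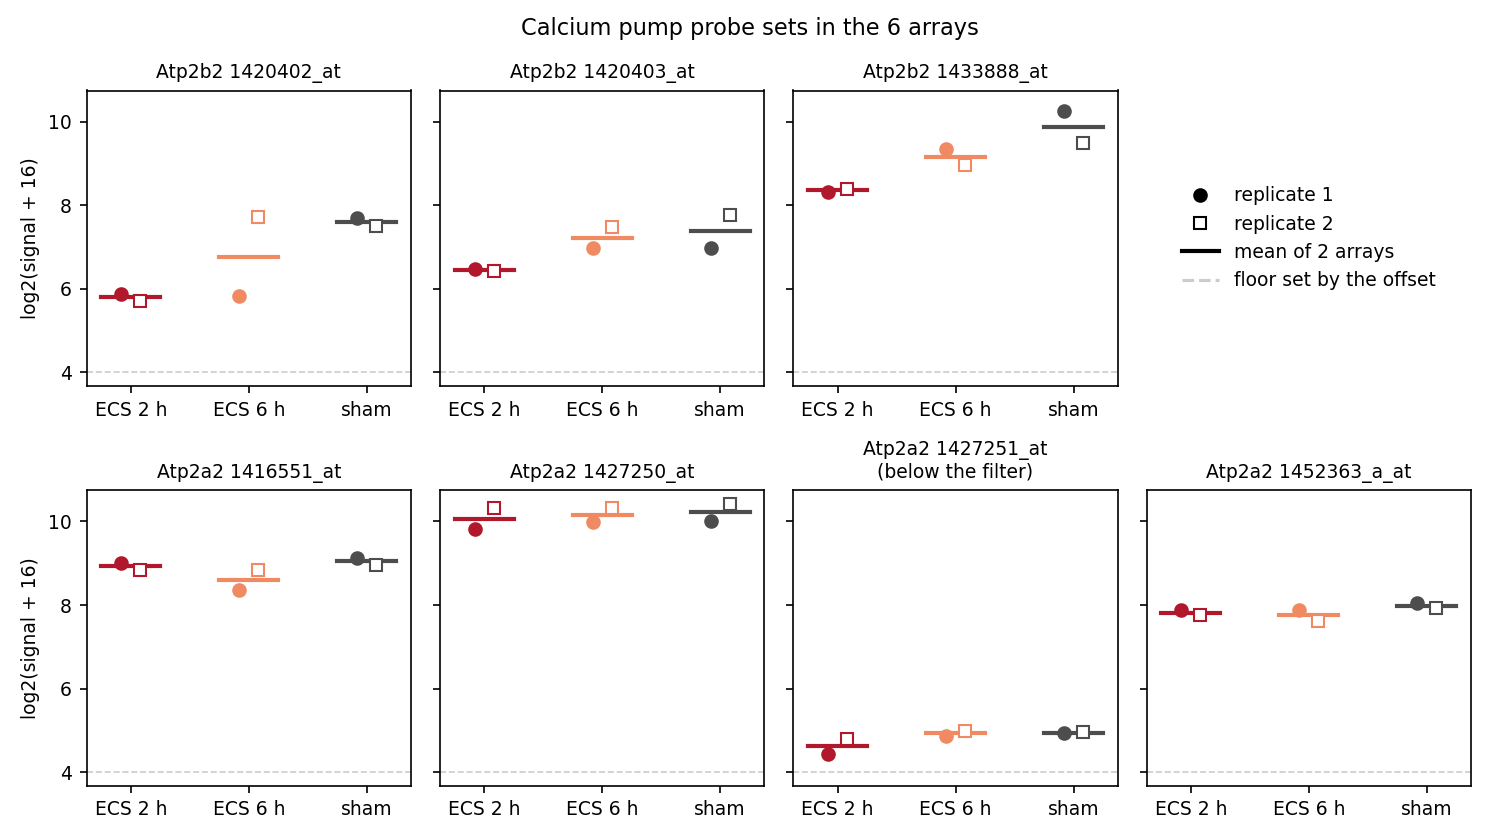
Log2(signal + 16) of the 7 calcium pump probe sets (y axis) in ECS at 2 h, ECS at 6 h and sham (x axis), with 1 point per array, a bar for the mean of the 2 arrays and a dashed line at the floor of 4. The 3 Atp2b2 probe sets have their lowest group mean at 2 h, and the 6 h arrays of 1420402_at split at 5.84 and 7.71. The 3 tested Atp2a2 probe sets lie within 0.17 of sham at 2 h on average.

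Against sham, Atp2b2 at 2 h differed by a log2 change of -1.51 ± 0.313 (SE) on 1433888_at, which is 2.85-fold lower. The change was -1.79 ± 0.538 on 1420402_at, 3.47-fold lower, and -0.93 ± 0.396 on 1420403_at, 1.91-fold lower. In all 3 probe sets both ECS arrays lay below both sham arrays, an arrangement found in 16.4% of all tested probe sets. In 2 of the 3 the difference was also at least 2-fold, as in 1.9% of all tested probe sets. Since Atp2b2 was chosen by this comparison, nothing is read from these shares. In limma with Benjamini-Hochberg adjustment over all probe sets the share called at 2 h was 0%, that is 0 of 12662, with 507 at an unadjusted p under 0.05, or 337 without 2 h replicate 1. With the replicate number as a block the count was 4, with no pump probe set among them.

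The replicates gave the 2 h difference alike on 1420402_at, with -1.81 within replicate 1 and -1.78 within replicate 2. They gave -1.92 and -1.10 on 1433888_at, and -0.51 and -1.35 on 1420403_at. The size on 1420403_at rested in part on sham replicate 2, without which the change was -0.54.

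At 6 h Atp2b2 lay closer to sham, in a comparison that shares its sham arrays with the one that chose the gene. Its log2 change against sham was -0.72 ± 0.313 on 1433888_at (limma adjusted p = 1.00), with an interval (95%) of -1.41 to -0.03 and both 6 h arrays below both sham arrays. It was -0.82 ± 0.538 on 1420402_at and -0.16 ± 0.396 on 1420403_at, each with overlapping arrays. On 1420402_at the value was 0.11 without 6 h replicate 1, the array that stood apart, and -1.76 without 6 h replicate 2. On 1420403_at it was 0.085 without 6 h replicate 1 and 0.23 without sham replicate 2. On 1433888_at it kept its sign with each array left out, at -0.91 without 6 h replicate 1, -0.34 without sham replicate 1 and -1.11 without sham replicate 2. Of the 6 tested pump probe sets, Atp2a2 included, 3 had both 6 h arrays below both sham arrays, against 15.3% of all tested probe sets. Limma called 0% of all probe sets at 6 h, with 475 at an unadjusted p under 0.05, where 633 would be expected by chance.

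Set directly against 2 h, Atp2b2 at 6 h was higher on each probe set, by 0.79 ± 0.313 on 1433888_at, 0.97 ± 0.538 on 1420402_at and 0.77 ± 0.396 on 1420403_at (limma adjusted p = 0.999 for each). Both 6 h arrays lay above both 2 h arrays on 2 of the 3, against 14.4% of all tested probe sets. On 1420402_at the difference was 1.89 without 6 h replicate 1 and 0.035 without 6 h replicate 2. This comparison shares its 2 h arrays with the one that chose the gene, so a low 2 h value enters both. The same 2 probe sets were below sham at 2 h and above 2 h at 6 h without overlap, an order held by 5.8% of all tested probe sets. The 2 h difference from sham chose Atp2b2, so nothing is read from these shares. Limma called 0% here too, with 438 at an unadjusted p under 0.05, where 633 would be expected by chance.

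Atp2a2, the endoplasmic reticulum pump, lay within 0.17 of sham at 2 h on each tested probe set. Its brightest probe set, 1427250_at, had a log2 signal of 9.82 and 10.32 in ECS at 2 h, 9.98 and 10.33 in ECS at 6 h, and 10.02 and 10.42 in sham. In every group replicate 2 was the higher array, and the groups overlapped. The change at 2 h against sham was -0.15 ± 0.252 with an interval (95%) of -0.71 to 0.41. Within the replicates it was -0.20 and -0.10. With 1 array left out it was 0.10 without 2 h replicate 1 and -0.40 without 2 h replicate 2. At 6 h against sham it was -0.065 ± 0.252, with an interval of -0.62 to 0.49, and -0.034 and -0.097 within the replicates.

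On 1416551_at Atp2a2 had a log2 signal of 9.01 and 8.84 in ECS at 2 h, 8.36 and 8.84 in ECS at 6 h, and 9.13 and 8.97 in sham. The lowest of these 6 values belonged to 6 h replicate 1, and both 6 h arrays lay below both sham arrays. The change was -0.13 ± 0.292 at 2 h and -0.45 ± 0.292 at 6 h (limma adjusted p = 1.00). The 6 h value was -0.21 without 6 h replicate 1 and -0.69 without 6 h replicate 2, and the 2 h value ran from -0.21 to -0.039 with 1 array left out. On 1452363_a_at it read 7.87 and 7.75 in ECS at 2 h, 7.88 and 7.62 in ECS at 6 h, and 8.04 and 7.92 in sham. Both ECS groups lay below sham here without overlap, by -0.17 ± 0.322 at 2 h and -0.22 ± 0.322 at 6 h.

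The last Atp2a2 probe set, 1427251_at, did not reach the signal filter, with log2 signals between 4.43 and 4.99 in the 6 arrays. It is near the floor and was not tested. All 6 tested pump probe sets, which belong to 2 genes, had mean values below sham at 2 h and at 6 h. Of all tested genes 48.5% lay below sham at 2 h and 50.3% at 6 h. Both comparisons share the sham arrays and the 2 h comparison chose Atp2b2, so nothing is read from the count. The comparison of 6 h against 2 h put the 3 of Atp2b2 above and 2 of the 3 of Atp2a2 below. Whether the change of Atp2b2 differs from that of Atp2a2 was not tested.

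**Figure D2:**
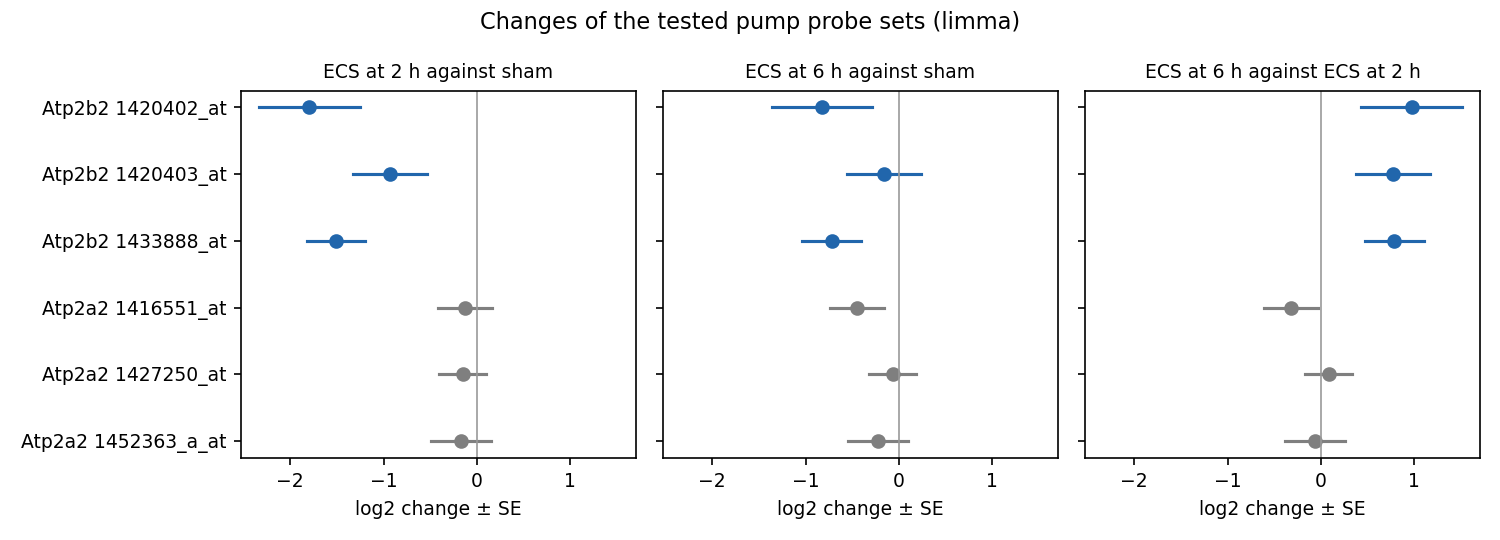
Log2 change ± SE of the 6 tested pump probe sets (x axis) for ECS at 2 h against sham, ECS at 6 h against sham and ECS at 6 h against ECS at 2 h. Atp2b2 (blue) lies between -1.79 and -0.93 at 2 h against sham and above 0 at 6 h against 2 h, while Atp2a2 (grey) lies between -0.45 and 0.085 in all 3 comparisons.

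Few other calcium pumps passed the signal filter. Atp2c1, which loads the Golgi with calcium and manganese, was the only gene of a list of 5 relatives with a tested probe set. Its probe sets disagreed at 6 h. On 1434386_at the log2 signal was 8.95 and 8.27 in ECS at 2 h, 7.95 and 7.97 in ECS at 6 h, and 8.69 and 8.08 in sham, a change of -0.43 ± 0.355 at 6 h against sham. On 1437738_at it was 7.55 and 8.05 in ECS at 2 h, 9.15 and 8.24 in ECS at 6 h, and 7.71 and 7.63 in sham, a change of 1.02 ± 0.381 (limma adjusted p = 1.00). The muscle pump Atp2a1, its relative Atp2a3 and the secretory pathway pump Atp2c2 stayed below the filter. No probe set has Atp2b3 as its only symbol in the annotation.

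Genes of cortex and hippocampus neurons differed between the groups in the same direction as Atp2b2, and their summed signal is given beside it. Over the 13 genes of that list on the array it was 537 and 783 in ECS at 2 h, 479 and 1771 in ECS at 6 h, and 2418 and 3013 in sham, on the normalized linear scale. The 6 h replicate with the low sum, replicate 1, is also the one where Atp2b2 1420402_at read 5.84, and the one with the high sum is where it read 7.71. The brightest probe set, 1433888_at, went the other way between these arrays, with 9.34 in replicate 1 and 8.95 in replicate 2. At 2 h 9 of the 10 tested genes lay below sham, 7 of them without overlap, with a median log2 change of -2.19. Over all 7332 tested genes 48.5% lay below sham, 16.4% without overlap, and the median was 0.0127. The list was chosen with earlier results of these data known, so nothing is read from this contrast. The genes named next were picked by smallest p at 2 h. Camk2a, the synaptic kinase subunit, was at -2.74 ± 0.526, Mef2c, a transcription factor, at -3.00 ± 0.693, Tbr1, a factor of cortical projection neurons, at -2.39 ± 0.565, and Lamp5, a membrane protein of forebrain neurons, at -3.36 ± 0.862. No gene of the list was at 0 in all arrays.

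General neuron genes summed to 18331 and 19101 in ECS at 2 h, 19146 and 22383 in ECS at 6 h, and 23666 and 23834 in sham, over 17 genes. At 2 h 15 of the 17 lay below sham, with a median of -0.38, Snap25 at -0.46 ± 0.12, Stx1a, its partner in vesicle fusion, at -1.25 ± 0.335, Syt1, the calcium sensor of release, at -1.46 ± 0.447 and Thy1, a surface protein, at -0.53 ± 0.208. Hypothalamic and PVN genes had higher sums in both ECS groups than in sham, at 8717 and 8503 in ECS at 2 h, 9404 and 8558 in ECS at 6 h, and 6044 and 7166 in sham over 19 genes. At 2 h 12 of 15 tested genes lay above sham, with a median of 0.26, Trh at 0.70 ± 0.318, Sst (somatostatin) at 0.75 ± 0.341, Pcsk1, a prohormone convertase, at 0.65 ± 0.315 and Scg2, a granule protein, at 0.60 ± 0.349.

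Oligodendrocyte genes summed to 3331 and 3280 in ECS at 2 h, 2750 and 2933 in ECS at 6 h, and 4042 and 3685 in sham, with 6 of 8 tested genes below sham at 2 h, among them Cldn11 at -0.80 ± 0.369 and Mbp at -0.34 ± 0.193. Astrocyte genes summed to 9381 and 10047 in ECS at 2 h, 8966 and 9775 in ECS at 6 h, and 9444 and 9229 in sham, with a median of 0.11 at 2 h. The medians of microglia (-0.074) and of endothelial and mural genes (-0.038) at 2 h were near 0. No gene of these lists passed the adjusted test in any comparison. The part of forebrain neurons, general neurons or myelin in the Atp2b2 values was not tested, and in tissue pools fewer cells of a type and less RNA per cell cannot be told apart.

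**Figure D3:**
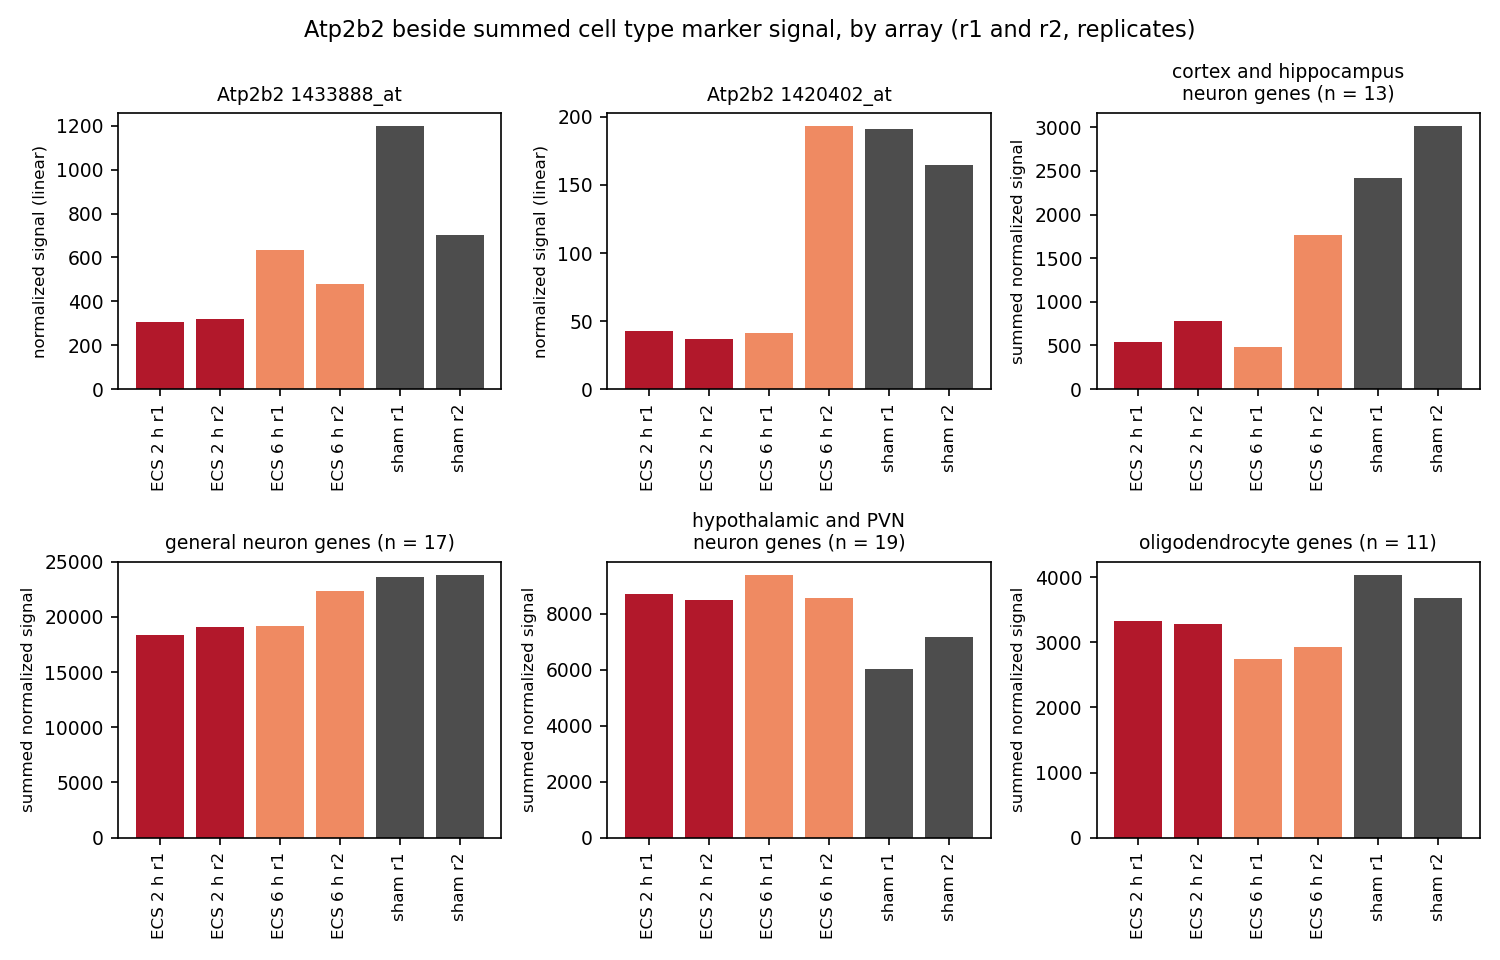
Normalized linear signal (y axes from 0) of 2 Atp2b2 probe sets and summed signal of 4 marker lists in each of the 6 arrays, with ECS at 2 h, ECS at 6 h and sham from left to right. Atp2b2 1420402_at and the cortex and hippocampus sum are low in the same 3 arrays, both at 2 h and 6 h replicate 1 (sums of 479 to 783), while the hypothalamic sum is lower in sham.

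The other genes of calcium handling were taken from lists, and none of their members passed the adjusted test in any comparison. Of 2 tested sodium-calcium exchangers, which clear calcium at the plasma membrane beside the pumps, both lay below sham at 2 h, Slc8a1 at -0.57 ± 0.418 and Slc24a3 at -0.41 ± 0.406. Of 7 tested partners of the pumps 5 lay below sham, with a median of -0.25. Dlg4 (-0.76 ± 0.486) and Dlg1 (-0.26 ± 0.322) are scaffolds that bind the tails of PMCA splice forms, Nptn (-0.40 ± 0.266) is neuroplastin, an obligatory subunit of PMCA, and Slc9a3r2 (-0.25 ± 0.275) is the scaffold NHERF2, which binds PMCA2. No probe set has a calmodulin gene as its only symbol in the annotation, and the SERCA inhibitors Pln and Sln did not reach the filter.

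Genes of the endoplasmic reticulum store, the compartment that SERCA fills, had a median of 0.057 at 2 h with 7 of 11 above sham, and 0.14 at 6 h with 8 of 11 above. Ryr2, a calcium release channel, had a log2 signal of 6.06 and 6.04 in ECS at 2 h, 6.29 and 7.24 in ECS at 6 h, and 7.08 and 7.42 in sham, a change of -1.20 ± 0.413 at 2 h. Both 2 h arrays lay below all other arrays, as in 5.8% of all tested probe sets. Ryr2 is named for the smallest p of its list at 2 h, so nothing is read from this order. Stim1, the sensor of an emptied store, was at 0.80 ± 0.516, Itpr2, an inositol trisphosphate receptor, at -0.56 ± 0.468 and Hspa5, the chaperone BiP, at 0.17 ± 0.186.

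Cytosolic calcium-binding proteins had a median of -0.14 at 2 h, with 7 of 12 below sham. Pvalb encodes parvalbumin, a calcium buffer of interneurons. Its log2 signal was 5.99 and 4.57 in ECS at 2 h and 4.07 and 5.92 in ECS at 6 h. In sham it was 7.68 and 7.73. All 4 ECS arrays lay below both sham arrays, and the change was -2.43 ± 0.636 at 2 h and -2.71 ± 0.636 at 6 h. Of all tested probe sets 16.4% lay below sham without overlap at 2 h and 15.3% at 6 h. Pvalb is named for the smallest p of its list at 2 h, so nothing is read from its separation. Hpca (hippocalcin) was at -1.07 ± 0.421 at 2 h, Vsnl1 (visinin-like 1) at -0.41 ± 0.176 and Calb1 (calbindin) at 0.31 ± 0.264. Voltage-gated calcium channel subunits, the route of entry, had a median of -0.13 with 9 of 15 below sham, with Cacnb1 at -1.17 ± 0.467, Cacng7 at -1.24 ± 0.444, Cacng3 at -0.88 ± 0.44 and Cacna1h, a low-voltage-activated channel, at 0.87 ± 0.435.

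**Figure D4:**
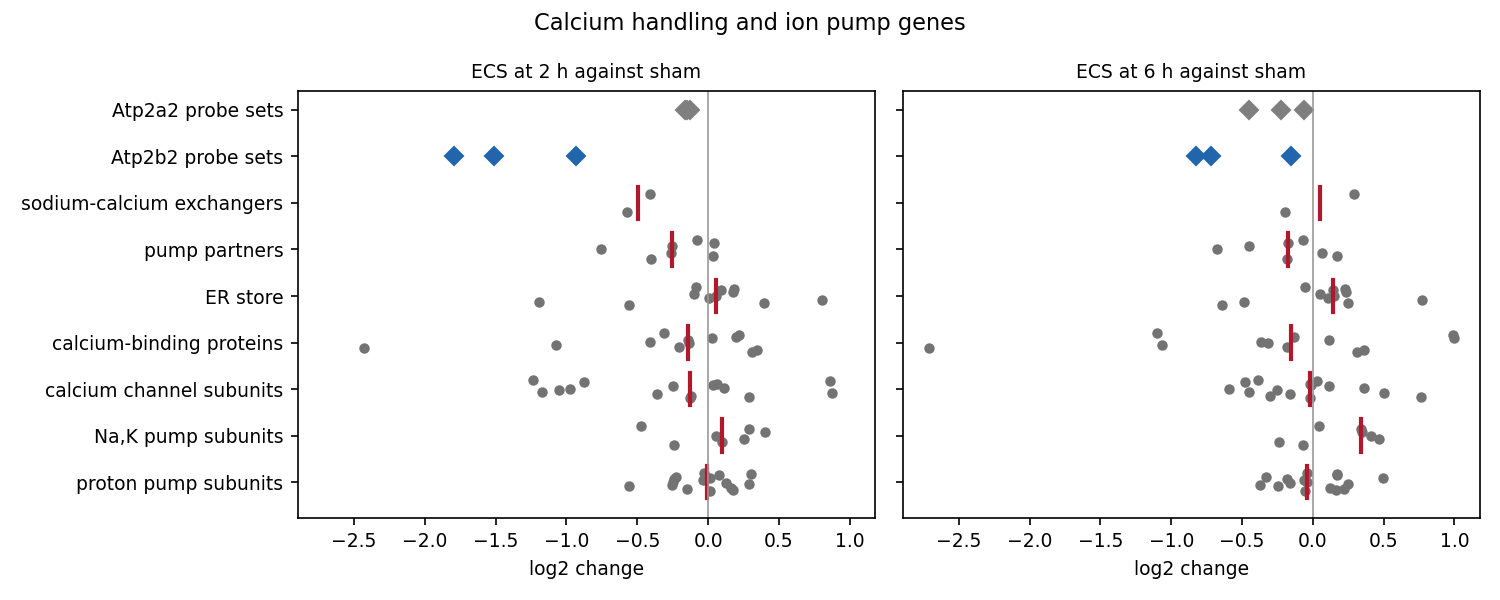
Log2 change (x axis) at 2 h and at 6 h against sham of the tested Atp2b2 and Atp2a2 probe sets (diamonds) and of the genes of 7 lists (grey points, red bar for the list median). The medians of the lists lie between -0.49 and 0.34, and the Atp2b2 probe sets lie between -1.79 and -0.93 at 2 h. Atp2b2 was chosen by the 2 h comparison, and single genes of the lists, Pvalb and Ryr2 among them, also lie in or below that range.

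The profile of a gene over the 6 arrays was compared with that of 7331 other genes by the root mean square difference of the log2 signals after centring each gene on its mean. Nearest to Atp2b2 1433888_at were Plin2, a lipid droplet protein, at 0.184, Tshz2, a zinc finger protein, at 0.221 and Alas1, the first enzyme of haem synthesis, at 0.231, where the median over all genes was 0.739. Plin2, for example, had log2 signals of 5.30 and 5.13 in ECS at 2 h, 5.82 and 5.49 in ECS at 6 h, and 6.85 and 5.92 in sham. The other probe sets of Atp2b2 itself were farther away, at 0.686 for 1420402_at and 0.579 for 1420403_at. Nearest to Atp2a2 1427250_at were Ddx5, an RNA helicase, at 0.0507, Itm2c at 0.0517 and Ssbp4 at 0.0574, against a median of 0.407. These 3 share with Atp2a2 the higher replicate 2 in every group. The nearest of 7331 genes lie below the median by construction, so nothing is read from their distances.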

How the data were processed

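The deposited table holds MAS5 intensity values on a linear scale that the authors made, per the submitters' processing notes, without version or detection calls in the sources used here. The array was hybridised with cDNA amplified from 2 ng of pooled RNA. The 64 control probe sets were left out, quantile normalization was applied, and 16 was added before log2, which shrinks changes of dim probe sets. A probe set was tested if 2 or more of the 6 arrays gave it a signal no lower than the array median, and the 12662 that passed were fitted with limma 3.58.1 in R 4.3.3, with 1 mean per group, a variance trend, two-sided p-values and a threshold of 0.05 after Benjamini-Hochberg adjustment over the whole table. Of all probe sets 20380 carried 1 gene symbol. Each gene of a list was represented by its tested probe set of highest mean signal, and summed marker levels take the brightest probe set of every listed gene on the array. Symbols come from the array annotation, with RefSeq synonyms for older names. With 2 arrays per group, their number limits the precision, and p-values measure the spread between pools. The members and lists were chosen with earlier results of these data known. Named genes are the pump genes, their relatives, up to 4 genes per list by smallest p at 2 h, and the 3 nearest profiles; the PVN genes of the tissue check were chosen after their values were seen. The labels describe 2 runs with different animals, and a replicate number was taken to mark a run; deviations of replicate 1 from the group mean correlated by 0.151 to 0.228 between groups. The procedure was also run on simulated data without a replicate effect and with changes larger than those of Atp2b2. That run does not show how well changes of the size seen here are found.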

Additional observations from a re-analysis of the deposited data

How the results depend on the processing

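Alternatives covered the offset (1 and 64), scaling between arrays, the filter, array weights, the variance trend, a replicate block, the 4 arrays of a comparison alone, and leaving out each array. No pump probe set was called under any of them, and of 306 alternative values of the pump changes 291 kept their sign. For Atp2b2 at 2 h against sham all 17 alternatives were negative on each probe set. They ran from -2.13 (offset of 1) to -1.22 (offset of 64) on 1420402_at, -1.91 to -1.13 on 1433888_at and -1.33 to -0.54 on 1420403_at. Since this comparison chose Atp2b2 and the alternatives reuse its arrays, nothing is read from the shared sign. The number of probe sets called at 2 h was 1 with the values as deposited, 1 with median scaling, 2 with array weights, 4 with the replicate block and 12 with 4 arrays alone. With 1 array left out it ran from 0 to 10 at 2 h against sham, from 0 to 6 at 6 h against sham and from 0 to 3 at 6 h against 2 h. The upper counts came without either 6 h array at 2 h, and without 6 h replicate 2 in the others. The replicate block left the other 2 comparisons without a call. With the block an unadjusted p under 0.05 was reached by 826 probe sets at 2 h against sham, 793 at 6 h against sham and 720 at 6 h against 2 h. Without the block these counts were 507, 475 and 438. By chance 633 would be expected in each case. Leaving out 1 array gave -0.40 to 0.10 for Atp2a2 1427250_at at 2 h, -0.27 to 0.14 at 6 h and -0.17 to 0.34 at 6 h against 2 h. It gave -0.19 to 0.071 for Atp2a2 1452363_a_at at 6 h against 2 h, and 0.12 came with the values as deposited. It gave -1.76 to 0.11 for Atp2b2 1420402_at and -0.55 to 0.23 for 1420403_at at 6 h against sham. Atp2a2 1427250_at at 6 h was 0.12 with the values as deposited, 0.15 with median scaling and 0.0016 with the trimmed mean. Median scaling moved the median of all probe sets at 6 h to 0.10, and the deposited values moved it to 0.16 at 6 h against 2 h. The cause of the other shifts was not tested.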

Other observations

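Subunits of the sodium-potassium pump, which restores the membrane potential after firing, had a median log2 change of 0.097 at 2 h and 0.34 at 6 h against sham over 7 tested genes, 5 of them above sham at each time. Atp1b1, a beta subunit, was at -0.24 ± 0.165 at 2 h, and the FXYD regulators Fxyd6, Fxyd5 and Fxyd7 were at 0.29 ± 0.3, 0.40 ± 0.432 and -0.47 ± 0.557. No probe set has a catalytic alpha subunit of the list as its only symbol in the annotation. Vacuolar proton pump subunits, which acidify vesicles, had a median of -0.0078 at 2 h with 8 of 16 below sham, among them Atp6v1d at -0.25 ± 0.133, Atp6v0e2 at -0.56 ± 0.315, Atp6v1f at -0.24 ± 0.239 and Atp6v1a at -0.26 ± 0.259. None of these genes passed the adjusted test in limma, which called 0 of 12662 probe sets at 2 h. An unadjusted p under 0.05 was reached by 507, where 633 would be expected by chance.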
